A study of Mus musculus with 12 samples.

Results

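The 10 genes described here encode enzymes and receptors of the prostanoid system: Ptgs1, Ptgs2, Ptges, Ptgis, Tbxas1, Ptgds, Hpgd, Ptger2, Ptger4 and Ptgir. They were chosen by gene symbol from a table of 78298 gene identifiers, on the basis of how they differed between these same libraries, so their tissue differences are a description: no p-value is given for them, and where a call is mentioned nothing is read from it. Each symbol matched 1 identifier. Of the 10, 9 had enough counts for the fit over 22190 genes, and Ptgds did not.

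Prostanoids are short-lived lipid signals made from arachidonic acid, which phospholipases release from membranes. The cyclooxygenases turn arachidonic acid into prostaglandin H2, and a terminal synthase then decides the product: prostaglandin E2, prostacyclin, thromboxane A2 or prostaglandin D2. The products act on G-protein-coupled receptors near the cell of origin, and in the lung much prostaglandin is taken up and oxidised to an inactive form. Prostacyclin relaxes vessels and restrains platelets, thromboxane does the opposite, and prostaglandin E2 has many effects on vessels, immune cells and epithelium.

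RNA was sequenced from 12 mouse lung libraries, 3 in each of 4 groups: normal lung under VEH, normal lung under HDM, tumour under VEH and tumour under HDM. HDM is house dust mite, given chronically. VEH and LLC, the name that the labels give the tumours, are used as labelled. Tumours and the lung next to them were cut out by hand under a microscope, so each library is a mixture of cells. Strain, age, sex and genotype are not given in the sources used here, and neither is how the tumours arose.

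Total counts ran from 20608682 to 32765364 per library. Marker genes matched the tissue labels: 10 alveolar epithelium genes summed to between 17800 and 44300 CPM (TMM-normalised counts relative to library size) in normal libraries and to between 112 and 8920 CPM in tumours, and 8 proliferation genes to between 32.2 and 176 CPM in normal libraries and to between 555 and 1130 CPM in tumours. Tumour VEH replicate 2 had the highest alveolar sum of the tumours (8920 CPM). Library names carry a prefix that joins 1 normal and 1 tumour library. For 2 of the 6 prefixes the treatment labels conflict: normal VEH replicate 2 is joined to tumour HDM replicate 2, and normal HDM replicate 3 to tumour VEH replicate 3. Labels were kept as given, and for the members whose values moved most, values without these 4 libraries or with the 2 normal labels exchanged stand beside the result. Nothing in the labels says that replicates come from separate mice, so p-values measure only the spread between these libraries.

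Between tumour and normal lung the terminal synthases differed in opposite directions. Ptges, which makes prostaglandin E2, was 3.76-fold higher in tumours under VEH and 5.83-fold higher under HDM. Ptgis, which makes prostacyclin, was 20.5-fold and 14.8-fold lower. Hpgd, the enzyme that inactivates prostaglandins, was 15.5-fold and 62.1-fold lower. The cyclooxygenases and the receptors Ptger4 and Ptgir overlapped between tissues, except Ptgs2 under HDM. A lower level in a mixed piece of tissue can mean fewer cells that make the RNA or less RNA per cell, and these cannot be told apart.

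Under VEH, 3 of the 9 members passed an adjusted p below 0.05 in edgeR's quasi-likelihood test (Ptges higher, Ptgis and Hpgd lower), against 38.9% of all genes tested. Under HDM, 4 passed (Ptges higher, Ptgis, Hpgd and Ptger2 lower), against 51.9% of all genes. The members were chosen on these contrasts, so nothing is read from these counts. The median log2 fold change of the 9 members was 0.13 under VEH and -0.58 under HDM, beside -0.11 and -0.08 over all genes. The libraries of both tissues did not overlap for 3 members under VEH, where 52.4% of all genes did not overlap, and for 5 under HDM, where the figure was 63.1%. Scaling by library size only moved the median of all genes to 0.03 under VEH and 0.10 under HDM, and 0 members changed the sign of their tissue difference.

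**Figure D1:**
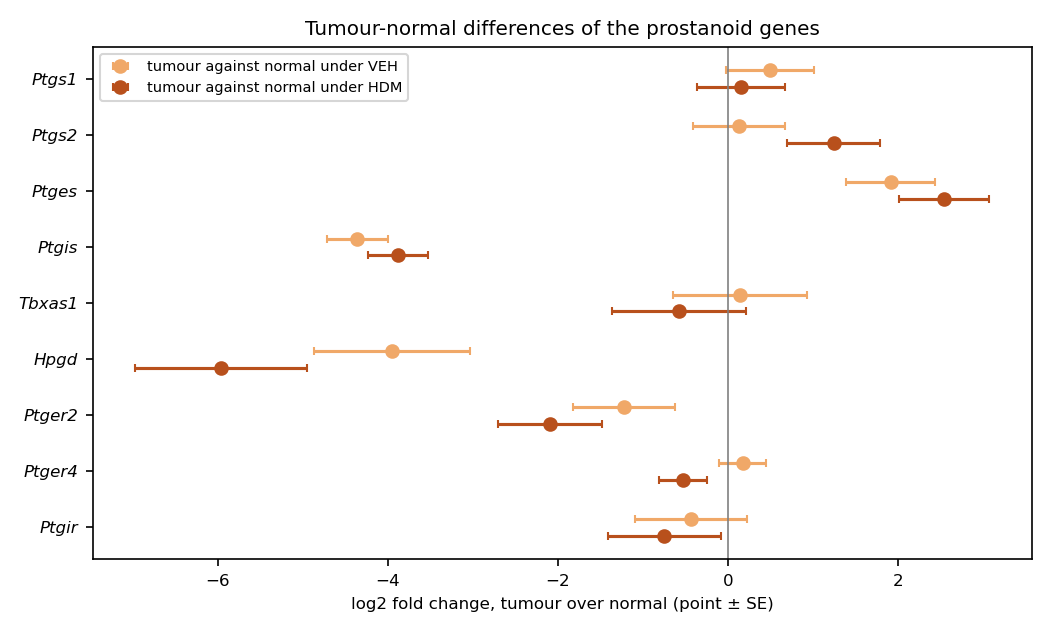
Log2 fold change of tumour over normal lung (horizontal axis, point with SE) for the 9 tested members, under VEH and under HDM. Ptges lies to the right of 0 under both treatments, Ptgis and Hpgd far to the left, and Ptgs1, Tbxas1, Ptger4 and Ptgir within about 1 unit of 0.

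Ptges (prostaglandin E synthase, the inducible microsomal form; GRCm39 chromosome 2, 30779483 to 30820196, minus strand) measured 28.0, 84 and 15.2 CPM in normal VEH, in the order of replicates 1, 2 and 3 that is kept below. It measured 45.0, 40.4 and 27.8 CPM in normal HDM. In tumours it was at 202, 119 and 157 CPM under VEH and at 177, 264 and 220 CPM under HDM. The lowest tumour library was above the highest normal library. Normal VEH replicate 2 stood out among the normal libraries, and without it the normal VEH mean went from 42.4 to 21.6 CPM. The log2 fold change was 1.91 ± 0.52 (SE) under VEH and 2.54 ± 0.53 under HDM. Without the 4 libraries with conflicting labels, the value under VEH was 2.99. The call under VEH was lost when only those groups were fitted (1.93), with no filter on low counts (1.94) or without normal VEH replicate 1 (1.68). Gm74745 lies opposite Ptges and had 2680 counts against 37279. Fibroblast markers summed to between 1340 and 3440 CPM in normal libraries and to between 5840 and 14700 CPM in tumours, with 4 of 10 higher and 4 lower in tumours under both treatments (Tcf21 was at 0 in tumour HDM replicate 3). Markers are counted as higher or lower, here and below, at an edgeR adjusted p below 0.05. Of all genes, 38.9% passed this under VEH and 51.9% under HDM. All 8 proliferation markers were higher in tumours. The part of either cell group in the Ptges difference was not tested.

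Hpgd (15-hydroxyprostaglandin dehydrogenase, which oxidises prostaglandins to inactive 15-keto forms; chromosome 8, 56747543 to 56774082, plus strand) was the most abundant member in normal lung. It was at 530, 462 and 655 CPM in normal VEH and at 318, 360 and 396 CPM in normal HDM. In tumours it was at 8.67, 81.2 and 16.5 CPM under VEH and at 4.35, 11.8 and 1.15 CPM under HDM. All tumour libraries were below all normal libraries, but tumours differed among themselves by 70.4-fold. Tumour VEH replicate 2 was the highest and tumour HDM replicate 3 the lowest. Without the former, the tumour VEH mean went from 35.5 to 12.6 CPM. Without tumour HDM replicate 2, the tumour HDM mean went from 5.76 to 2.75 CPM. In the fit, the log2 fold change was -3.95 ± 0.92 under VEH and -5.96 ± 1.01 under HDM. The call under VEH was lost without the 4 libraries of conflicting prefixes (-3.62). Tumour VEH replicate 2 also had the highest sums of alveolar and airway epithelium markers among tumours (8920 and 20300 CPM), and tumour HDM replicate 3 the lowest (112 and 8.13 CPM). Of the 10 alveolar markers, 3 were lower in tumours under VEH and 10 under HDM, with none at 0 in any library. Of the 8 airway markers, 1 and 6 were lower, and Dnah5 and Krt5 were at 0 in some libraries. The sums under VEH did not overlap between tissues. Alveolar sums were 17800 to 36300 CPM in normal lung and 2410 to 8920 CPM in tumours. Airway sums were 26900 to 113000 CPM and 465 to 20300 CPM. Endothelial markers, described below with Ptgis, were lower in tumours too, at 118 to 664 CPM against 1860 to 3890 CPM in normal libraries. The part of any of these cells in the Hpgd difference was not tested.

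The start-site windows of Ptges and Hpgd are shown because the first was higher and the second lower in tumour in every pair of libraries, and those of the cyclooxygenases because both catalyse the same step. They are from RefSeq on GRCm38.p6, 250 bases before to 50 after the start, and 9 of the 10 members matched. The motifs searched on both strands were TATAAA of the TATA box, the GC box, which is GGGCGG, the cAMP element core, which is TGACG, the AP-1 site, which is TGANTCA, and the E-box, which is CACGTG. Capitals mark the matches.
Ptges, chr2:30903248-30903547, minus strand: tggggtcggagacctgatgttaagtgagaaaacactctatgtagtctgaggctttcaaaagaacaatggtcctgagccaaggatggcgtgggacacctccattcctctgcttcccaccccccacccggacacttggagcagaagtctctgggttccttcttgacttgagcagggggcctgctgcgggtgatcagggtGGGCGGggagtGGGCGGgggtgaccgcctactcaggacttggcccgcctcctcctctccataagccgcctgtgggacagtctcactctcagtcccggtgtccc
Hpgd, chr8:56294302-56294601, plus strand: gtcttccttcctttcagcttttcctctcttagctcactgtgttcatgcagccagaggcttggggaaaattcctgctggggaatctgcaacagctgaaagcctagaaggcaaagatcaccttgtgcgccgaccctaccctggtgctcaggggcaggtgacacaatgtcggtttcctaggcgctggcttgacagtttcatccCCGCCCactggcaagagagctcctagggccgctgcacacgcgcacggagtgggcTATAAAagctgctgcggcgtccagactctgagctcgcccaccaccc
Ptgs1, chr2:36230176-36230475, plus strand: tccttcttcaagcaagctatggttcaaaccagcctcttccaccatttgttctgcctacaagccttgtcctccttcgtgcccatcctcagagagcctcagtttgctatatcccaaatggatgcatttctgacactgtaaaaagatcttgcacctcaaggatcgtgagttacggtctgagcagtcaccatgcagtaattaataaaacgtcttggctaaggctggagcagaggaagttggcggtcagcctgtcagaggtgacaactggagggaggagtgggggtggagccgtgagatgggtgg
Ptgs2, chr1:150099781-150100080, plus strand: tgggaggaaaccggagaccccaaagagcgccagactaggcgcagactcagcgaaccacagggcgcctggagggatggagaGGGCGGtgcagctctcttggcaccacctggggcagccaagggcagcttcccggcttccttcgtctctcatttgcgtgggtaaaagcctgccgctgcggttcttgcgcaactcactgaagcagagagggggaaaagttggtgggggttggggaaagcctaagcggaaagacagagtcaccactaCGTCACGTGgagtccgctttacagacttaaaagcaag
Ptges held the GC box at 2 places. Hpgd held a GC box on the other strand, and the letters TATAAA 4 bases after the annotated start. Ptgs2 held a GC box, and a cAMP core overlapping an E-box, 13 and 16 bases after the annotated start. Ptgs1 held none of the 5 motifs. Over 32851 promoter windows of 300 bases, 35.7% held the GC box, 13.6% the TATA box, 20.8% the cAMP core, 7.81% the AP-1 site and 7.15% the E-box. The matches are descriptions of letters and not of binding.

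Ptgis (prostacyclin synthase; chromosome 2, 167033725 to 167083018, minus strand) was at 128, 208 and 97.8 CPM in normal VEH and at 159, 114 and 122 CPM in normal HDM. In tumours it was at 5.74, 9.19 and 6.18 CPM under VEH and at 5.67, 10.8 and 10.3 CPM under HDM. No tumour library came near a normal one, and the tumours differed among themselves by only 1.90-fold. Tumour over normal, the log2 fold change was -4.36 ± 0.36 under VEH and -3.88 ± 0.35 under HDM. Endothelial markers moved the same way: they summed to between 1860 and 3890 CPM in normal libraries and to between 118 and 664 CPM in tumours, and 10 of 10 were lower under both treatments. Smooth muscle and pericyte markers summed to between 176 and 2140 CPM in normal libraries and to between 36.6 and 153 CPM in tumours, with 5 of 10 lower under VEH and 10 under HDM (Cnn1 and Lmod1 at 0 in tumour HDM replicate 3). Normal VEH replicate 2 had the highest Ptgis level but the lowest sums of both lists among normal libraries (1860 and 176 CPM). The part of these cells in the difference was not tested. Gm52569, Gm74972 and 1110018N20Rik lie opposite Ptgis, with 3321, 3131 and 175 counts against 23550. Whether counting used the strand is not given in the sources used here, so genes with an opposite neighbour are uncertain to that extent.

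Tbxas1 (thromboxane A synthase; chromosome 6, 38852203 to 39061523, plus strand) was at 5.87, 29.9 and 3.49 CPM in normal VEH and at 35.0, 28.9 and 4.71 CPM in normal HDM. In tumours it lay between 11.5 and 18.6 CPM. The highest normal library was 10-fold above the lowest, and the tumours fell inside that range. As a fitted log2 fold change this was 0.14 ± 0.79 under VEH and -0.58 ± 0.79 under HDM. Neither was called. Both were called, in opposite directions, without the 4 libraries of conflicting prefixes (1.87 under VEH and -1.12 under HDM), with the prefix as a block (1.82 and -1.23) and with the 2 normal labels exchanged (1.63 and -1.03). The HDM-VEH difference in normal lung went from 0.80 to 2.78 without those 4 libraries. The normal VEH mean of 13.1 CPM was 4.68 CPM without replicate 2. Macrophage markers summed to 2790, 9650 and 6650 CPM in normal VEH, to 12600, 12900 and 4650 CPM in normal HDM and to between 2400 and 4460 CPM in tumours. Of the 10 macrophage markers, 5 were higher and 1 lower in tumours under VEH, and 4 higher and 1 lower under HDM, with none at 0 in any library. The same 3 normal libraries were highest for both. The part of macrophages was not tested. Hipk2 lies opposite Tbxas1 with 8820 counts against 5288, so the level of Tbxas1 is uncertain.

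Ptgds (lipocalin-type prostaglandin D synthase; chromosome 2, 25352795 to 25362601, minus strand) had 29 counts over the 12 libraries, 0 in 6 of them and 10 at most. A count of 3, the upper limit that 0 allows, would be between 0.091 and 0.138 CPM, counting error only. Differences between groups were not detectable at this depth. Gm74786 lies opposite with 773 counts.

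Among the 4 synthases of the member list, compared per kilobase of gene length, Ptgis made up 84.3% ± 6.91 (SD, n = 3) of the summed level in normal VEH and 80.9% ± 4.74 in normal HDM. In tumours it made up 6.55% ± 3.17 under VEH and 5.58% ± 1.02 under HDM. Ptges went the other way, from 13.9% ± 5.69 and 15.1% ± 2.46 in normal lung to 89.7% ± 4.13 and 91.6% ± 0.289 in tumours. Per kilobase, the ratio of Ptges to Ptgis ran from 0.102 to 0.264 in normal libraries and from 8.46 to 23.1 in tumours. The ratio of Hpgd to Ptges ran from 12.8 to 100 in normal libraries and from 0.0122 to 1.59 in tumours. With Ptges2, Ptges3 and Hpgds added to the sum, Ptges made up 26.3% and 40.6% in tumours under VEH and HDM, and Ptgis 33.9% and 39.5% in normal lung. Ptges3, a cytosolic prostaglandin E synthase, then had the largest mean share in all 4 groups, between 47.3% and 67.7%, and its level is uncertain because Gm47438 lies opposite.

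**Figure D2:**
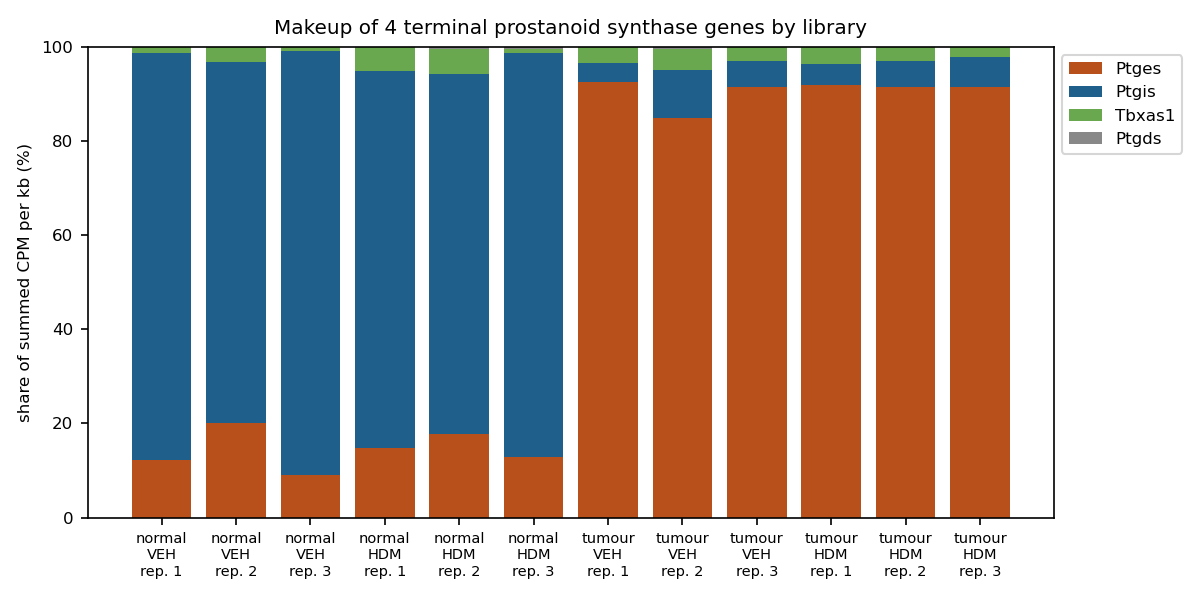
Share of each of 4 terminal synthase genes in their summed CPM per kilobase (vertical axis, percent), 1 bar per library. Ptgis fills most of every normal bar and Ptges most of every tumour bar.

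For the cyclooxygenase genes the tissue difference was not called under either treatment. Ptgs1 (cyclooxygenase 1, the form present in most tissues; chromosome 2, 36120438 to 36142287, plus strand) was at 42.1, 181 and 63.0 CPM in normal VEH and at 141, 135 and 47.7 CPM in normal HDM. Tumours lay between 106 and 163 CPM, inside the range of the normal libraries. The fitted log2 difference was 0.49 ± 0.52 under VEH and 0.15 ± 0.52 under HDM. The normal VEH mean of 95.5 CPM was 52.6 CPM without replicate 2, and the tissue difference under VEH was then 1.36 and was called. It was also called under VEH without the 4 libraries of conflicting prefixes (1.48), with the prefix as a block (1.32) and with the 2 normal labels exchanged (1.40). Gm43621 lies opposite Ptgs1 with 5102 counts against 36760.

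Ptgs2 (cyclooxygenase 2, the inducible form; chromosome 1, 149975194 to 149983978, plus strand) was at 23.1, 74.2 and 37.4 CPM in normal VEH and at 12.7, 34.0 and 23.5 CPM in normal HDM. It was at 60.7, 23.2 and 63.6 CPM in tumours under VEH and at 39.4, 85.2 and 41.4 CPM under HDM. Under HDM all tumours were above all normal libraries, and under VEH the tissues overlapped. On the log2 scale the tissue difference was 0.13 ± 0.54 under VEH and 1.24 ± 0.55 under HDM. With the 2 normal labels exchanged it was 0.81 and 0.46, and without the 4 libraries of conflicting prefixes 0.57 and 0.91. Per kilobase, Ptgs1 exceeded Ptgs2 in each of the 12 libraries, by between 1.61-fold and 13.1-fold. Ptgs2os lies opposite with 236 counts against 13908.

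**Figure D3:**
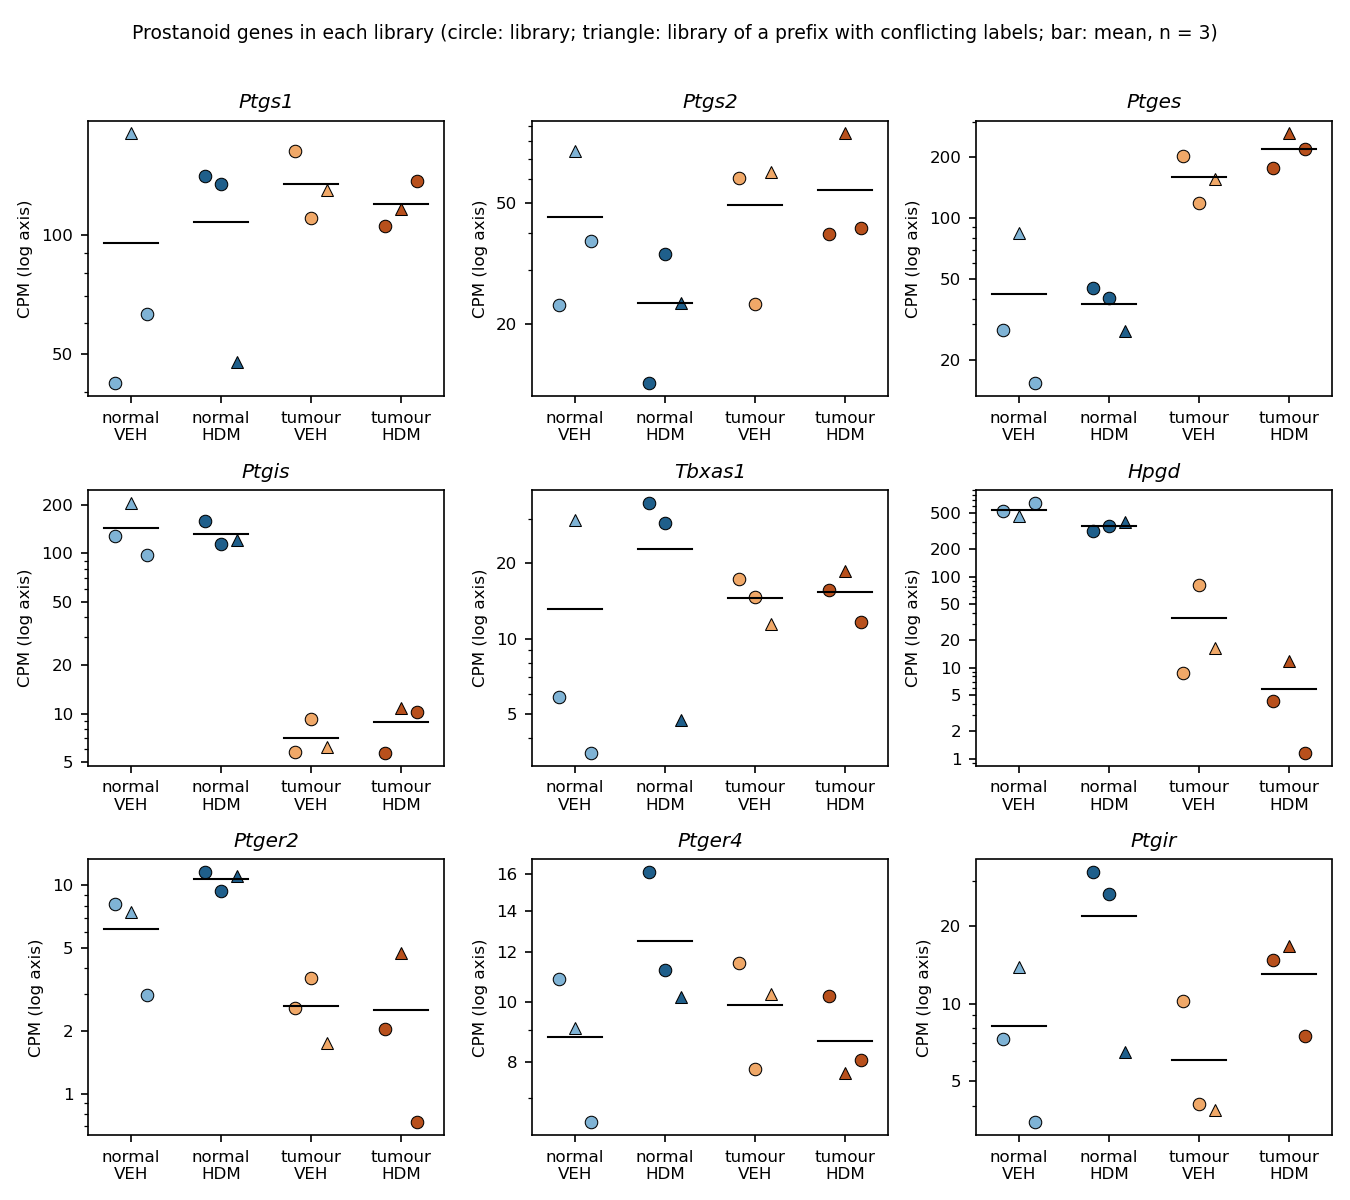
CPM on a log axis for the 9 tested members in each library, by group, with the group mean as a bar. Ptges, Ptgis and Hpgd separate tumours from normal lung, and Tbxas1, Ptgs1 and Ptgir spread widely among normal libraries.

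Among the receptors, Ptger2 (EP2, a prostaglandin E2 receptor that raises cAMP; chromosome 14, 45225652 to 45241277, plus strand) was at 8.13, 7.46 and 2.99 CPM in normal VEH and at 11.6, 9.44 and 11 CPM in normal HDM. In tumours it was at 2.59, 3.61 and 1.75 CPM under VEH and at 2.05, 4.75 and 0.728 CPM under HDM. Tumours were below normal lung without overlap under HDM only. The log2 fold change was -1.22 ± 0.60 under VEH and -2.09 ± 0.61 under HDM. The tumour HDM mean of 2.51 CPM was 1.39 CPM without replicate 2, and the call under HDM was lost without tumour HDM replicate 1 (-1.84).

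Ptger4 (EP4, which also raises cAMP; chromosome 15, 5236142 to 5273673, minus strand) varied little. It lay between 6.40 and 16.1 CPM in normal libraries and between 7.68 and 11.5 CPM in tumours. In the fit, the log2 fold change was 0.17 ± 0.28 under VEH and -0.53 ± 0.28 under HDM. Ttc33 lies opposite with 8770 counts against 3117, so this level is uncertain.

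Ptgir (the prostacyclin receptor; chromosome 7, 16640415 to 16644848, plus strand) was at 7.31, 13.8 and 3.45 CPM in normal VEH and at 32.4, 26.5 and 6.48 CPM in normal HDM. In tumours it was at 10.2, 4.09 and 3.88 CPM under VEH and at 14.7, 16.7 and 7.49 CPM under HDM. The tissues overlapped under both treatments. Tumour over normal, the log2 fold change was -0.44 ± 0.66 under VEH and -0.75 ± 0.66 under HDM. The normal VEH mean of 8.20 CPM was 5.38 CPM without replicate 2, and the tumour VEH mean of 6.05 CPM was 3.98 CPM without replicate 1. Without the 4 libraries of conflicting prefixes the tissue difference under VEH was 0.51.

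Per kilobase, the members in normal lung were ordered Hpgd, Ptgis, Ptgs1 and Ptges from the top in both treatments (326, 56.3, 24.6 and 10.8 CPM per kilobase under VEH). Ptgs1 and Ptges both varied between normal VEH libraries (SD 19.3 and 9.31), but Ptgs1 was above Ptges in every normal library. In tumours Ptges led at 40.6 ± 10.6 under VEH and 56.0 ± 11.1 under HDM, followed by Ptgs1 at 34.7 ± 6.92 and 30.9 ± 4.17. Ptgis stood at 2.74 and 3.46, and Hpgd at 21.1 and 3.42. The receptors Ptger2 and Ptger4 were near the bottom of every group, between 0.483 and 2.06.

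HDM and VEH were compared within each tissue. In tumours 0 members passed edgeR's test, beside 0.0946% of all genes. At an unadjusted p below 0.05 there was 1 member, and DESeq2 called 1, Hpgd. In normal lung 0 members passed, beside 0 of all genes, with 0 members at an unadjusted p below 0.05 and 0 by DESeq2. For the interaction, the change of the tissue difference with treatment, 0 members passed beside 0 of all genes, with 0 at an unadjusted p below 0.05 and 0 by DESeq2. Median log2 fold changes of the members were 0.08 in tumours, 0.18 in normal lung and -0.34 for the interaction, beside -0.03, -0.01 and -0.02 over all genes. In tumours the libraries of the 2 treatments overlapped for all 9 members, where 22.0% of all genes did not overlap. In normal lung they did not overlap for Hpgd, lower under HDM, and Ptger2, higher under HDM, where 10.3% of all genes did not overlap. With VEH and HDM swapped between the 2 normal libraries whose prefixes conflict, 2 members were called in normal lung, Ptgs1 (1.58) and Tbxas1 (2.73), both higher under HDM.

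The widest treatment differences in log2 were in Hpgd in tumours (-2.62 ± 0.87), where the groups overlapped, and in Ptgir in normal lung (1.41 ± 0.67) and in tumours (1.10 ± 0.66). The Hpgd value was -1.13 without tumour VEH replicate 2, -3.68 without tumour HDM replicate 2 and -4.02 without the 4 libraries of conflicting prefixes. The Ptgir value in normal lung was 2.46 without those 4 libraries, 2.07 with the 2 normal labels exchanged and 2.02 without normal VEH replicate 2. In tumours the Ptgir value was 1.71 without tumour VEH replicate 1 and 0.65 without the 4 libraries, and it turned to -0.41 with the prefix as a block. In normal lung, Ptgs2 stood at -0.94 ± 0.54, Ptger2 at 0.79 ± 0.58 and Tbxas1 at 0.80 ± 0.80. The Ptgs2 value turned to 0.53 with the 2 normal labels exchanged and was -0.38 without the 4 libraries. Each SE covers a good part of its value. The comparisons of tissue under VEH and under HDM use different libraries, and each shares its libraries with the comparisons of treatment.

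Within the 6 prefixes, tumour minus normal could be read for each pair of libraries. Ptges was higher in tumour in 6 of 6, by between 1.65 and 2.96 on the log2 scale. Ptgis was lower in 6 of 6, between -4.46 and -3.40, and Hpgd in 6 of 6, between -8.02 and -3.01. Ptger2 was lower in 5 of 6 and Ptgs2 higher in 5 of 6. Ptgs1, Tbxas1, Ptger4 and Ptgir were higher in 3 and lower in 3. For Ptgs1, Tbxas1 and Ptger4 the 3 higher prefixes were those with a VEH tumour and the 3 lower ones those with an HDM tumour. Tbxas1 differed by 1.54, 1.27 and 2.05 in the former and by -1.59, -0.87 and -0.68 in the latter. Ptgs1 differed by 1.95, 1.45 and 0.81 and by -0.04, -0.35 and -0.64. Ptger4 differed by only 0.08, 0.02 and 0.28 and by -0.99, -0.14 and -0.24. Each set includes a prefix with conflicting labels. The spread of Tbxas1 was 10-fold among normal libraries and 1.62-fold among tumours. The split had no test of its own, but the interaction was fitted in related settings. With the 2 normal labels exchanged it was -2.65 for Tbxas1 and -1.75 for Ptgs1, both called, and -0.6 for Ptger4, not called. With the prefix as a block it was -3.05, -1.57 and -0.75 for these genes, and none was called.

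**Figure D4:**
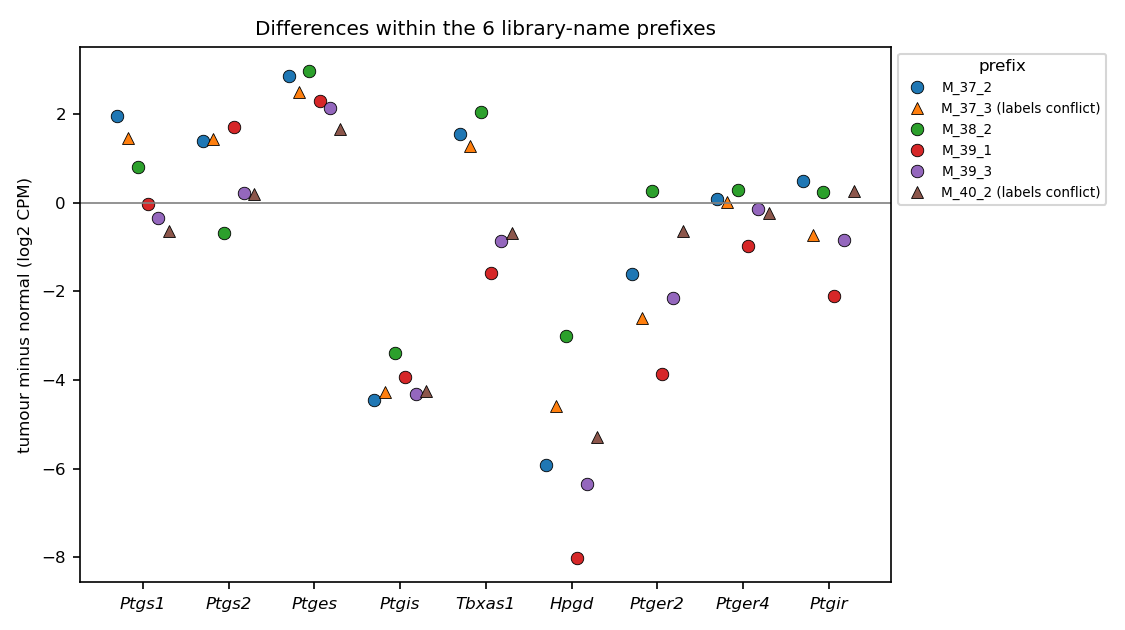
Tumour minus normal in log2 CPM (vertical axis) for each of the 6 library-name prefixes and each tested member, with triangles for the 2 prefixes whose treatment labels conflict. All 6 points of Ptges lie above 0, and all 6 of Ptgis and of Hpgd lie below it.

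The other genes of the pathway came from a list of 37, of which 26 were tested. The list was chosen with earlier results of these data known, so its calls and p-values are a description. Under VEH 12 passed edgeR's test, 1 higher and 11 lower in tumour, and under HDM 13 passed, 2 higher and 11 lower, beside 38.9% and 51.9% of all genes. The median log2 fold change was -0.87 and -0.64. No treatment comparison or interaction called any, and DESeq2 called 0 in each. At an unadjusted p below 0.05 there were 5 in tumours, 2 in normal lung and 2 for the interaction. The shares of all genes were 16.7%, 5.54% and 9.39%.

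Of the 7 transport and inactivation genes, 5 fell and 1 rose under VEH, and 3 fell and 1 rose under HDM. Slco2a1, the carrier that takes prostaglandins into cells for oxidation, had a log2 fold change of -3.49 ± 0.84 (edgeR adjusted p = 0.0094) under VEH and -5.15 ± 0.91 (adjusted p = 0.00124) under HDM. It was between 374 and 788 CPM in normal libraries and between 1.40 and 65.2 CPM in tumours, and the tumour VEH mean of 38.0 CPM was 24.4 CPM without replicate 2. The carbonyl reductases Cbr1 (-1.51 ± 0.33 and -1.84 ± 0.33) and Cbr3 (-1.85 ± 0.36 and -2.41 ± 0.37) fell under both, and Ptgr1, a reductase of the 15-keto products, fell under VEH (-1.64 ± 0.42). Abcc4, an exporter of prostaglandins, rose by 0.74 ± 0.26 (edgeR adjusted p = 0.0437) and 0.85 ± 0.26 (adjusted p = 0.0187). The carrier Slco2a1 and the oxidising enzyme Hpgd act in sequence, and both were lower in tumour.

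Of 6 other synthases, 1 was lower under VEH, and 1 higher and 2 lower under HDM. Hpgds, the haematopoietic prostaglandin D synthase, rose under HDM by 2.25 ± 0.70 (edgeR adjusted p = 0.0197) and stood at 1.42 ± 0.68 under VEH (adjusted p = 0.116). Its normal VEH mean of 2.71 CPM was 1.41 CPM without replicate 2, and its normal HDM mean of 2.5 CPM was 1.45 CPM without replicate 1. The other prostaglandin E synthases had small values: Ptges2 -0.24 ± 0.19 and -0.45 ± 0.19, and Ptges3 0.19 ± 0.23 and 0.23 ± 0.23, neither passing. Ptges3 lies opposite Gm47438, with 56679 counts against 290406, and is uncertain. Akr1b7, an aldo-keto reductase with prostaglandin F synthase activity, was at the floor of 3 counts in HDM tumours, at least 14.5-fold lower.

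Of 6 tested receptors other than the members, 3 fell under each treatment and 0 rose. They were Tbxa2r and Ptger1 (EP1, whose values are not described further) under both, Ptger3 under VEH, and under HDM Ptgfrn, which encodes a regulator of the prostaglandin F receptor rather than a receptor. Tbxa2r, the thromboxane receptor, had a log2 fold change of -3.41 ± 0.81 (edgeR adjusted p = 0.00825) and -4.47 ± 0.85 (adjusted p = 0.00172). Without normal VEH replicate 1 its normal VEH mean went from 7.37 to 3.25 CPM, and without tumour VEH replicate 3 its tumour VEH mean from 0.696 to 0.398 CPM. Ptger3 (EP3) fell under VEH by 5.93 ± 1.56, and its normal VEH mean went from 12.3 to 1.12 CPM without replicate 2. Ptgdr2, a prostaglandin D2 receptor, stood at 1.06 ± 0.42 and 0.72 ± 0.42 and did not pass.

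Among the phospholipases, 7 of 17 were tested. Under VEH 2 fell (Pla2g2d and Pla2g12a), and under HDM 3 fell (Pla2g2d, Pla2g4f and Pla2g1b). Pla2g4a, the cytosolic enzyme that releases arachidonic acid in most cells, stood at 0.13 ± 0.24 and 0.26 ± 0.25.

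**Figure D5:**
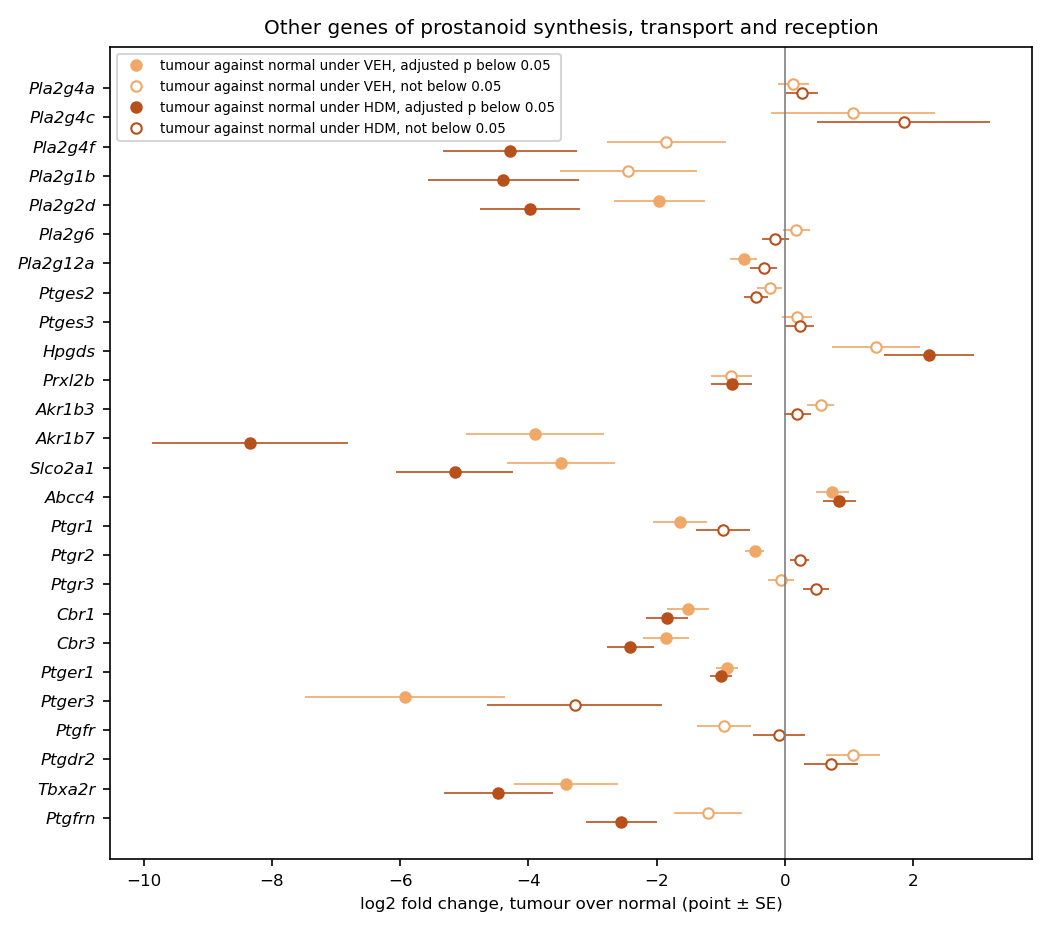
Log2 fold change of tumour over normal lung (horizontal axis, point with SE) for the 26 other tested genes of the pathway; filled points have an adjusted p below 0.05. Slco2a1, Tbxa2r, Cbr1 and Cbr3 are filled to the left under both treatments, and Abcc4 to the right.

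The 3 genes with the pattern most like each of the 4 members of widest span were found over the 12 libraries, among 16424 genes, by the root mean square difference of centred log2 CPM. Hpgd had Fmo2 (0.413), Cdkn1c (0.431) and Fgfbp1 (0.434), against its own spread of 3.06. Ptgis had Gm52569 (0.325), which overlaps it, Tmem255b (0.444) and Gata5 (0.453), against 2.09. Ptges had Gm62541 (0.278), Galnt7 (0.278) and Impa2 (0.280), against 1.34. Ptger2 had Gm15270 (0.325), Gpr157 (0.456) and Ccn2 (0.465), against 1.15. For Tbxas1, chosen after its values were seen, they were Cd84 (0.249), Tyrobp (0.253) and Lrp12 (0.271), against 1.01.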

How the data were processed

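Per the submitters' processing notes, reads were trimmed with Trim Galore, aligned with STAR to mm39 and counted with featureCounts of Subread. Raw counts per gene are as deposited by the authors. The strand setting and annotation are not given in the sources used here, so symbols and coordinates come from GENCODE M39 on GRCm39. In R 4.3.3, edgeR 4.0.16 fitted 1 coefficient per group over all 12 libraries (filterByExpr, minimum count 10, TMM, robust quasi-likelihood), with Benjamini-Hochberg adjustment over 22190 genes and a threshold of 0.05. CPM are TMM-scaled counts. SE is the log2 fold change divided by the root of the F statistic. A floor of 3 counts sets fold bounds. The fit was tested on simulated data, and no result above rests on that. Members and lists were chosen with earlier results of these data known. The named genes are all members, any listed gene, and the 3 most alike genes of 4 members. Alternatives used DESeq2 1.42.0, other scalings and filters, blocks, and subsets of libraries.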

Additional observations from a re-analysis of the deposited data

How the results depend on the processing

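Leaving out each library in turn, members called in tumour against normal ranged from 2 to 4 under VEH and from 3 to 4 under HDM, and wider-list genes from 6 to 13 and from 11 to 14. The low of 6 under VEH came without tumour VEH replicate 1 and without tumour VEH replicate 3. Treatment and interaction counts for both lists were 0 in each of these fits. With a replicate block, members called were 3 under VEH and 4 under HDM, and wider-list genes 10 and 12. Correlations were above 0.1 for 4 of 12 pairs by replicate number and for 3 of 6 by prefix. So few pairs cannot decide whether the libraries pair. No pairing was used in the main fit, because prefixes conflict with treatment labels in 4 libraries. Under the prefix block 5 members were called under VEH and 6 under HDM (Tbxas1 -1.23 and Ptgir -1.37 added), and wider-list genes 8 and 11. Swapping VEH and HDM between the 2 normal libraries whose prefixes conflict gave 5 members under VEH and 5 under HDM (Tbxas1 1.63 and -1.03), 2 in normal lung (Ptgs1 1.58, Tbxas1 2.73), 2 for the interaction (Ptgs1 -1.75, Tbxas1 -2.65) and 1 wider-list gene in normal lung. The DESeq2 Wald test called 1 member in tumours. All-gene calls in tumours ran from 0 to 1311 against 21. The cause of these changes was not tested. No called member reversed. Depth left Ptgds and 11 of the 37 wider-list genes untested.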

Other observations

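Genes beside the prostanoid pathway were read from 3 further lists. These were also chosen with earlier results of these data known, so their calls and p-values are a description. Of 11 tested leukotriene and lipoxygenase genes, 1 rose and 4 fell in tumour under each treatment (edgeR, adjusted p below 0.05), beside 38.9% of all genes called under VEH and 51.9% under HDM. Lta4h, which makes leukotriene B4, rose by 0.57 ± 0.11 under VEH (edgeR adjusted p = 0.00284) and by 0.56 ± 0.11 under HDM (adjusted p = 0.00195). Alox12 fell by 3.27 ± 0.86 and 4.99 ± 0.96. Ltb4r2 was at the floor of 3 counts in tumours, at least 3.85-fold and 8.13-fold lower. Alox5 fell under VEH (-1.76 ± 0.64) and stood at -1.13 ± 0.62 under HDM.

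Of 11 cAMP-responsive genes, which respond to the pathway of Ptger2 and Ptger4, 2 fell under VEH, and 1 rose and 3 fell under HDM, beside the same shares of all genes (38.9% and 51.9%). Sik1 fell by 1.87 ± 0.29 and 2.33 ± 0.30, and Areg rose under HDM by 1.91 ± 0.38. Of 9 genes listed as inducers of Ptgs2, 4 rose and 1 fell under VEH, and 2 rose and 1 fell under HDM, again beside 38.9% and 51.9%. The list includes Nfkbia, which encodes an inhibitor and not an inducer. Its mean was 142 CPM in normal VEH and 80.7 CPM in tumour VEH, and 103 and 68.8 CPM under HDM. Il1r1 rose by 1.03 ± 0.36 and 2.29 ± 0.38, and Tlr4 by 0.98 ± 0.31 and 1.03 ± 0.30. Tnf rose under VEH (2.31 ± 0.75) and stood at 0.30 ± 0.71 under HDM.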
